A study of Caenorhabditis elegans with 2 samples.

Results

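Binding of the transcription factor AHA-1 along the Caenorhabditis elegans genome was mapped by ChIP-seq, in which DNA bound to a protein is pulled down with an antibody and sequenced. The results below concern 8 enzyme genes of gluconeogenesis and the glyoxylate shunt, out of 19973 protein-coding genes on the 6 nuclear chromosomes. They are the phosphoenolpyruvate carboxykinase genes pck-1, pck-2 and pck-3, fbp-1, pyc-1, icl-1, mdh-1 and mdh-2. There was 1 group of 2 biological replicates, numbered 1 and 2, of whole L4 larvae with males and females pooled, and no other genotype, treatment or stage was compared. The strain was OP124 (unc-119(ed3) III; wgIs124), in which an inserted transgene supplies an eGFP-tagged copy of aha-1. The antibody is given as aha-1 and its target as eGFP-aha-1, so it is not known whether untagged AHA-1 was pulled down as well. The sources used here do not give the promoter that drives the tagged copy or the number of animals per replicate.

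Each replicate had a list of 30000 peaks, and a further list of 30000 peaks was called on both replicates together. These pooled peaks are called candidates here, since the authors deposited them as peaks and background for the irreproducible discovery rate (IDR) procedure. The IDR list held 530 peaks, which were the 530 candidates of highest signal. The signal is the authors' own value of ChIP against control for each peak, and it serves only to rank peaks within a list, with rank 1 the strongest. The lists carry no read counts, so depth is unknown and no value here has a counting interval. The peaks were selected on their positions in the pooled list: a candidate belonged to a gene when its summit lay inside the gene or within 3 kb of one of its annotated transcript starts. The genes were chosen by pathway with earlier results of these data known, so the pooled signals and ranks that follow are a description and carry no test.

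Gluconeogenesis makes glucose from smaller carbon compounds by running most of glycolysis backwards and replacing its one-way steps. Pyruvate carboxylase (pyc-1) makes oxaloacetate in the mitochondrion, malate dehydrogenases (the cytoplasmic mdh-1 and the mitochondrial mdh-2) interconvert malate and oxaloacetate, phosphoenolpyruvate carboxykinase turns oxaloacetate into phosphoenolpyruvate, and fructose-1,6-bisphosphatase (fbp-1) removes a phosphate near the end of the path. The glyoxylate shunt bypasses the carbon dioxide-releasing steps of the tricarboxylic acid (TCA) cycle, which lets nematodes make carbohydrate from stored fat, and icl-1 encodes a protein with both of its activities, isocitrate lyase and malate synthase. AHA-1 is the worm orthologue of mammalian ARNT, a basic helix-loop-helix PAS protein that binds DNA with a partner such as HIF-1 or AHR-1. ARNT dimers recognise a core written ACGTG or GCGTG, together RCGTG.

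The sequences under 5 of the peaks are shown first, to set those of the 3 genes with the strongest peaks beside a weaker peak with no core near its summit (icl-1) and a weak one with several (mdh-2). Each is the plus strand of the RefSeq genome WBcel235 (the ce11 assembly), 5′ to 3′, with every RCGTG match on either strand in capitals, a match on the minus strand being read as its reverse complement. The pck-1 sequence is its whole peak, and the others are the 101 bp centred on the summit of the strongest peak of mdh-1, pyc-1, icl-1 and mdh-2.
pck-1, rank 4, chrIII:67142-67372: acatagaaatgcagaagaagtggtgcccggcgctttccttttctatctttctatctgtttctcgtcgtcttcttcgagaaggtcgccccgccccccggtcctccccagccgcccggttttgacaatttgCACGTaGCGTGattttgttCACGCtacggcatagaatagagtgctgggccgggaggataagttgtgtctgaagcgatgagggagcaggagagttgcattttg
mdh-1, rank 57, chrV:6517327-6517427: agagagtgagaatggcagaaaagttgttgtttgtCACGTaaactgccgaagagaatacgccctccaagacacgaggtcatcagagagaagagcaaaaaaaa
pyc-1, rank 125, chrV:11824249-11824349: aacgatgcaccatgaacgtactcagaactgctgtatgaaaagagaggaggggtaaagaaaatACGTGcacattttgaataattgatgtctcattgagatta
icl-1, rank 599, chrV:729329-729429: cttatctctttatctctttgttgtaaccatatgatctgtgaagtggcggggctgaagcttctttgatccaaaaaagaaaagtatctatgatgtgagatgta
mdh-2, rank 4348, chrIII:6608249-6608349: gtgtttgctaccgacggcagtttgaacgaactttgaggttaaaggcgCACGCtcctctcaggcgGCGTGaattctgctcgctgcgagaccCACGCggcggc
The matches in the pck-1, mdh-1 and pyc-1 sequences include TACGTG, the form known as the hypoxia response element, which reads CACGTA on the other strand at pck-1 and mdh-1. The icl-1 sequence holds no core, and the mdh-2 sequence holds 3 of the GCGTG form.

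Of the 8 genes, 3 had an IDR summit in the window, namely pck-1, mdh-1 and pyc-1, whereas an IDR summit was found for 4.25% of all protein-coding genes (848 of 19973) under the same rule. All 8 had at least 1 candidate summit, against 82.6% of all protein-coding genes. The windows held 51 candidates, of which 4 were IDR peaks, and no candidate fell in the windows of more than 1 of the 8 genes. Strongest peaks differed widely among the genes, with signals of 163.4 at pck-1, 60.5 at mdh-1, 43.9 at pyc-1, 23.8 at icl-1, 21.2 at pck-2, 16.2 at fbp-1, 12.3 at pck-3 and 11.2 at mdh-2, where the median over all candidates was 7.08. The median rank of the strongest peak was 700.0 over the 8 genes and 8576.5 over the 16506 protein-coding genes with a candidate.

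**Figure D1:**
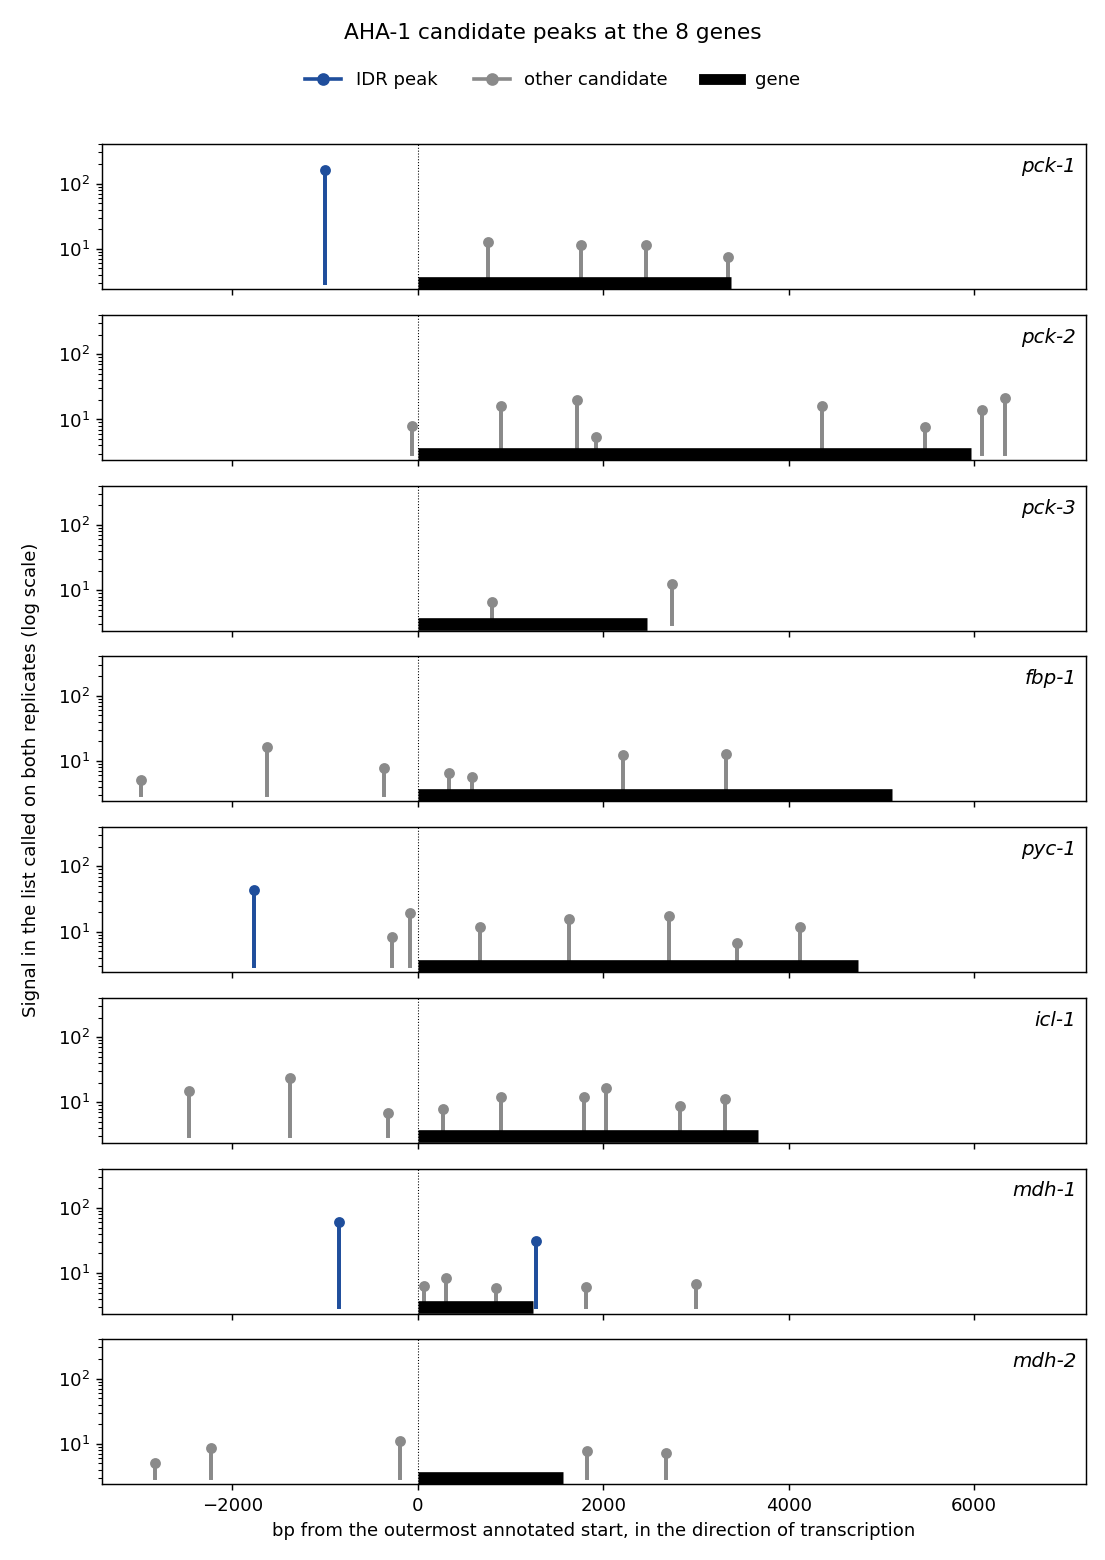
Candidate peaks at the 8 genes. Each stem is a candidate placed at its summit, in bp from the outermost annotated start in the direction of transcription (negative is upstream), its height is the signal in the list called on both replicates on a log axis that begins above 0, blue marks IDR peaks and the black bar is the gene. The 4 IDR peaks stand outside the genes at pck-1, pyc-1 and mdh-1 (2 peaks), and several genes carry rows of weak candidates along their length.

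All 4 IDR summits lay between protein-coding genes, as did 72.5% of the 530 IDR summits. The strongest peak of pck-1, mdh-1 and pyc-1 lay upstream of the gene, at -1003, -851 and -1770 bp from the nearest annotated start. Over the 848 genes with an IDR summit, the strongest one was upstream for 593 (69.9%), with a median distance of 758 bp, and 288 of those 593 (48.6%) lay 800 bp or more away. The remaining 47 candidates were weaker and spread over the genes: of the 51 summits, 20 were in coding exons, 15 in introns, 4 in UTR exons and 12 between genes. Over all candidates, 20.2% of summits were in coding exons, 33.0% in introns, 6.11% in UTR exons and 40.7% between genes. The rule takes summits inside the genes or near their starts, so it partly sets where the 51 lie. Shares over the windows of all protein-coding genes are not given. The class of exon and intron is that of any protein-coding gene at the summit, and some belong to a neighbour.

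The pck-1 gene (WBGene00021043, chrIII:62888-66260, minus strand) carried the strongest of these peaks. Its summit at 67263 ranked 4 in the pooled list with a signal of 163.4. In replicate 1 the matching peak ranked 6 with a signal of 83.4, and in replicate 2 it ranked 2 with a signal of 81.9. The peak is high in both replicates, with summits 9 and 35 bp from the pooled one toward lower coordinates. Its neighbours in rank were the peak nearest mai-1, a mitochondrial ATPase inhibitor gene, at rank 3 with a signal of 164.4, and the peak nearest rpl-3, a ribosomal protein gene, at rank 5 with a signal of 161.4. The nearest annotated start of any protein-coding gene was that of pck-1 itself. The only other gene with a start within 3 kb was spt-4, whose start lay 2489 bp away on the other side of the peak. At 231 bp this peak was narrower than the 316 bp that most candidates have, as were 19 of the 20 strongest candidates and 28 of all 30000.

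Inside pck-1 there were 4 further candidates, ranked 2862, 3945, 4250 and 12851, with signals of 7.56 to 12.9. The peak at rank 2862 was matched in replicate 1 (rank 625) and had no counterpart in replicate 2. The peak at rank 3945 was matched in replicate 2 (rank 1190) and had none in replicate 1. None of these 4 had an RCGTG core within 50 bp of its summit.

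Neither of the other phosphoenolpyruvate carboxykinase genes had an IDR peak. The pck-2 gene (WBGene00011232, chrI:7866136-7872100, plus strand) has 5 distinct annotated starts and held 8 candidates. Its strongest, of rank 801 and signal 21.2, had its summit 373 bp past the 3′ end of pck-2 and inside a coding exon of the neighbouring gene suro-1. That peak ranked 16718 in replicate 1, with a signal of 3.70, and 314 in replicate 2, with a signal of 18.5, so this peak ranked high in 1 replicate only. Elsewhere in the window replicate 1 had a peak of rank 544, which overlapped the pooled candidate of rank 1470 inside pck-2. The strongest candidate inside pck-2 ranked 933, and it ranked 1024 in replicate 1 and 6212 in replicate 2. Its summit lay in a coding exon where the annotated gene R11A5.6 overlaps pck-2, and which gene the exon belongs to was not resolved. The start of R11A5.6 was the nearer, at 66 bp, against -1244 bp for pck-2. The candidate nearest the first pck-2 start, at -60 bp, ranked 11209 with a signal of 8.01. The candidate of rank 801 overlapped that of rank 2256, and the one of rank 933 overlapped that of rank 25915, and by nearest summit each pair was matched to the same replicate peaks, although the candidate of rank 2256 also overlapped a stronger replicate 1 peak, of rank 1115.

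The pck-3 gene (WBGene00019151, chrIV:5896641-5899112, plus strand) had 2 candidates, the fewest of the 8 genes. The stronger had rank 3289 and a signal of 12.3, with its summit 269 bp past the 3′ end of the gene and within 200 bp of the piRNA gene 21ur-2522. It was matched in replicate 2 at rank 2092 and had no counterpart in replicate 1. The other, in an intron, ranked 17101, was matched only in replicate 2, at rank 27899, and replicate 1 had no peak summit anywhere in the pck-3 window. The upstream 3 kb of pck-3 held no candidate.

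The fructose-1,6-bisphosphatase gene fbp-1 (WBGene00001404, chrI:2581015-2586124, minus strand) had 7 candidates, with ranks from 1539 to 27279. The strongest, at -1623 bp, had a signal of 16.2, and its summit fell in a coding exon of the neighbouring gene ptr-12. It ranked 2230 in replicate 1 and 5678 in replicate 2. The candidate closest upstream, at -360 bp, ranked 12224 in the pooled list, had no counterpart in replicate 1 and ranked 1661 in replicate 2. The replicates thus placed their strongest fbp-1 peaks at different points, with best ranks in the window of 1198 in replicate 1, inside the gene, and 1661 in replicate 2, upstream of it.

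The pyruvate carboxylase gene pyc-1 (WBGene00004258, chrV:11817783-11822529, minus strand) had an IDR peak of rank 125 and signal 43.9. It ranked 379 in replicate 1 with a signal of 14.9, and 81 in replicate 2 with a signal of 29.8. Its summit at 11824299 lay -1770 bp from the nearest pyc-1 start and 1463 bp downstream of the start of D2023.4, past the end of that gene, so D2023.4 has the nearer start. The start of mpst-1, a gene named for mercaptopyruvate sulfurtransferase, lay 2768 bp from the summit. A weaker candidate stood close to the pyc-1 start, at -80 bp, with rank 994 and a signal of 19.4. It ranked 2371 in replicate 1 and 1312 in replicate 2. Within 50 bp of its summit there were 3 cores, among them 1 E-box CACGTG and 1 TACGTG. This candidate was named after its values were seen, as were the 5 candidates inside pyc-1, which ranked 1260 to 16738.

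The malate dehydrogenase genes differed from each other. The cytoplasmic gene mdh-1 (WBGene00018491, chrV:6515283-6516526, minus strand) had 2 IDR peaks. The upstream one, with its summit at 6517377, had rank 57 and a signal of 60.5, and it ranked 173 in replicate 1 with a signal of 20.1 and 34 in replicate 2 with a signal of 42.8. The summits in the replicates lay 0 and 1 bp from the pooled one. The summit stood between divergent starts, -851 bp from mdh-1 and -920 bp from F46E10.3, which are nearly equal distances. The second IDR peak, of rank 319 and signal 30.6, lay 36 bp past the 3′ end of mdh-1 and -7 bp from the start of dpy-11, a cuticle morphology gene, so its nearest start is not that of mdh-1. It ranked 591 in replicate 1 and 380 in replicate 2, and the non-coding gene F46E10.13 lay within 200 bp.

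The mitochondrial gene mdh-2 (WBGene00003162, chrIII:6606544-6608106, minus strand) had 5 candidates and none inside the gene. The strongest, at -193 bp and also -323 bp from the start of F20H11.4 on the other strand, ranked 4348 with a signal of 11.2. It ranked 9428 in replicate 1, from a peak whose summit was 232 bp away, and 2403 in replicate 2. Of its other candidates, the one at rank 14252 had no counterpart in either replicate and was the only such peak among the 51.

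The glyoxylate shunt gene icl-1 (WBGene00001564, chrV:724332-728004, minus strand) had the most candidates, 9, and none in the IDR list. Its strongest had its summit at -1375 bp, in an intron of the neighbouring gene srh-2, whose start was nearer, at 1067 bp. This peak ranked 599 with a signal of 23.8, just outside the list, whose last peak had a signal of 25.25. It ranked 705 in replicate 1 with a signal of 11.7 and 2728 in replicate 2 with a signal of 9.22. A candidate of rank 522, in the IDR list, had its summit at -3539 bp from icl-1, outside the 3 kb window and not counted, and it was named after its values were seen. Inside the gene 6 candidates ranked 1399 to 11538. The E-box CACGTG, a form of the core, stood within 50 bp of a pair of weaker icl-1 summits, at -2464 bp (rank 1999) and at 258 bp (rank 11538). The candidate closest upstream, at -322 bp in a UTR exon of srh-2, ranked 16576 in the pooled list, had no counterpart in replicate 1 and ranked 1021 in replicate 2.

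The counts depended on the 3 kb limit. With 1 kb in its place the windows held 35 candidates, and with 5 kb they held 64, against 51 here. The number of genes with an IDR summit also changed, as given in the last section. The candidates nearest to the 3 kb limit were weak. One of mdh-1 lay just inside, at 2998 bp with rank 16475 and a signal of 6.79. One of pck-2 lay just outside, at -3005 bp with rank 25686 and a signal of 5.37.

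The order of the genes was compared between the lists, first by the replicate peaks matched to each gene's strongest pooled peak. For pck-1, mdh-1 and pyc-1 the order was the same in the pooled list and in each replicate, and these were the 3 genes whose matched peaks ranked within 530 in both replicates. Of all 530 IDR peaks, 229 (43.2%) had matched peaks within that rank in both. Within rank 265 in both replicates the 3 genes became 2, since the pyc-1 match ranked 379 in replicate 1. No share of the IDR peaks is given at that rank. By these matched peaks the other 5 genes changed places: in replicate 1 the order was icl-1, fbp-1, mdh-2 and pck-2, with pck-3 unmatched, and in replicate 2 it was pck-2, pck-3, mdh-2, icl-1 and fbp-1. By each replicate's own strongest peak in the window, wherever it lay, the 4 of them with a peak in both replicates kept the same order: pck-2 (544 and 314 in replicates 1 and 2), icl-1 (705 and 1021), fbp-1 (1198 and 1661) and mdh-2 (9428 and 2403), with pck-3 at 2092 in replicate 2 and absent from replicate 1. The strongest peak of every gene but pck-3 had a match in both replicates by an overlap of at least 1 bp. With summits required to lie within 100 bp this held for 5 genes, as pck-2 and mdh-2 then had no match in replicate 1. The pooled list was called on the same reads, so a match is not independent support.

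**Figure D2:**
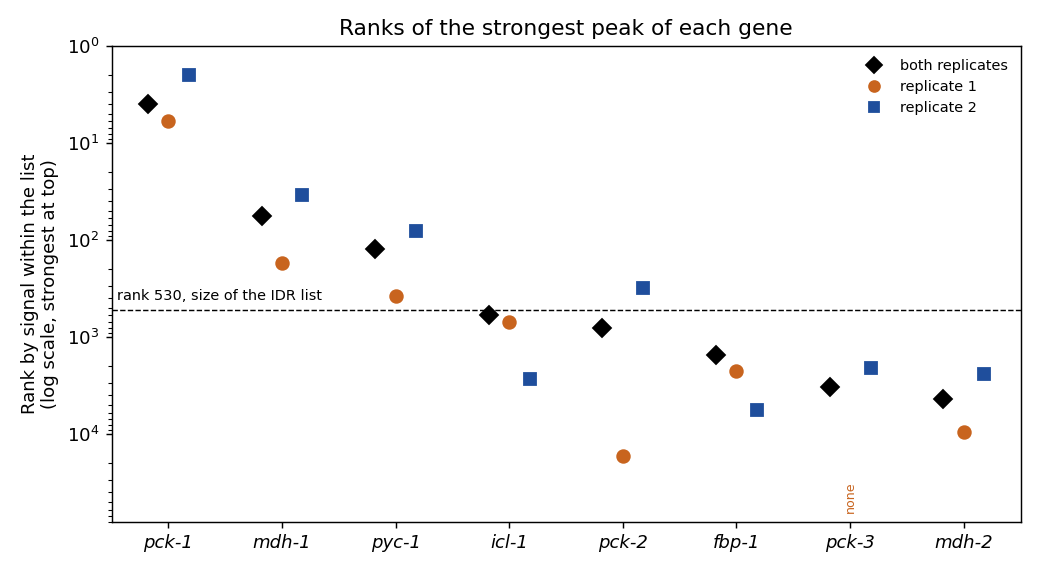
Rank by signal of the strongest peak of each gene, on a log axis with the strongest at the top, in the list called on both replicates (black diamonds), replicate 1 (orange circles) and replicate 2 (blue squares). The points of pck-1, mdh-1 and pyc-1 lie above the dashed line at rank 530, and pck-2 ranked 314 in replicate 2 but 16718 in replicate 1.

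When each replicate's own list was used, with its 530 strongest peaks in place of the IDR list, replicate 1 gave the same 3 genes with a summit in the window, against 4.06% of all protein-coding genes. Replicate 2 gave 4, pck-2 being the addition, against 4.20%. With the 1060 strongest pooled candidates in place of the IDR list the count was 5, icl-1 and pck-2 being the additions, against 7.66%. In a window from 1000 bp upstream to 500 bp downstream of a start it was 1, mdh-1, against 2.09%. The other upstream IDR summits lie farther out, that of pck-1 only just, at -1003 bp, and that of pyc-1 at -1770 bp. The best rank in the pck-2 window in replicate 1 was 544, just past the limit of 530.

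Many of the 8 genes carried rows of weak candidates. The median number per gene was 7 over the 8 genes and 2 over all protein-coding genes, although the median window was 6523 bp for the 8 genes and 6001 bp for all. For the genes of adjoining steps listed below it was 6 for glycolysis alone and 4.5 for substrate entry and carriers. It was 4 for the steps that glycolysis and gluconeogenesis share and 3 for the TCA cycle. The 5 genes with 7 or more candidates were pck-2, fbp-1, pyc-1, icl-1 and mdh-1, and 3.54% of all protein-coding genes had that many, a limit set at the members' median after it was seen. The windows held 8.92 candidates per 10 kb, against 2.99 over the 6 chromosomes. The chromosomes include sequence outside any gene window, and no density over the windows of all protein-coding genes is given, so these values are not like for like. Since the candidates include background by design, these counts do not number bound sites.

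The replicates ranked these weak peaks differently. Of the 51 candidates, 39 overlapped a peak of replicate 1, 45 one of replicate 2 and 34 both (66.7%), against 26.5% of all candidates. These sets differ in strength, which limits the comparison. The 51 had a median rank of 4250 among the 30000, and of the 530 IDR peaks 99.2% matched in both. Among the 16 summits in coding or UTR exons matched in both, 12 ranked better in replicate 1. Of the 10 in introns 5 did, and of the 8 between genes 1 did. Over all candidates, 903 of 1806 exonic, 1226 of 2432 intronic (50.4%) and 1802 of 3719 intergenic summits (48.5%) ranked better in replicate 1. The 8 intergenic summits include the 4 IDR peaks, and each of those ranked better in replicate 2. Overlapping candidates share matches, and the cause of this difference was not tested.

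**Figure D3:**
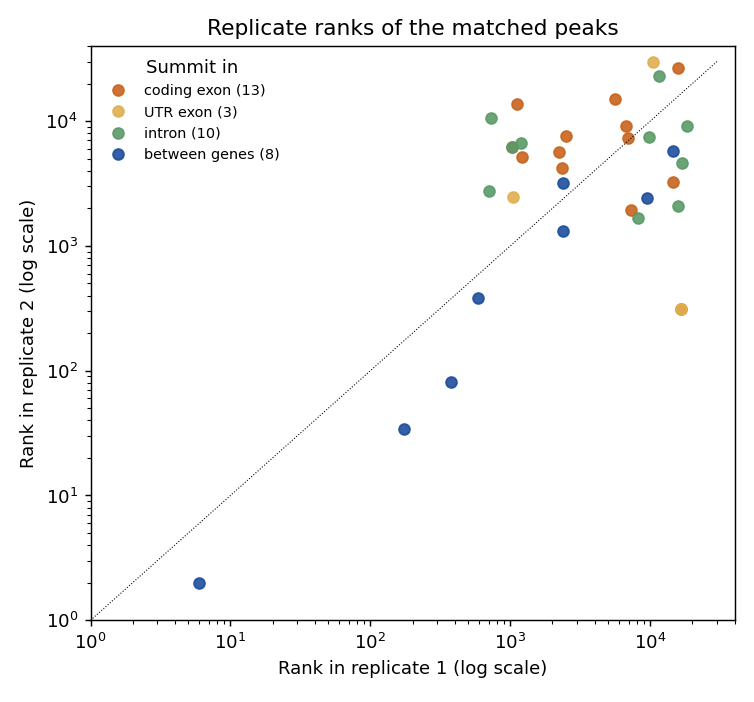
Ranks in replicate 1 (horizontal) and replicate 2 (vertical), both on log axes, of the 34 candidates at the 8 genes that matched a peak in each, coloured by where the summit lies. Points under the dotted line ranked better in replicate 2, as 7 of the 8 intergenic summits did, and 12 of the 16 in coding or UTR exons lie above it (overlapping candidates can share a point).

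The RCGTG core was not used to choose the peaks. It lay within 50 bp of the strongest summit, on either strand, at 4 of the 8 genes, pck-1, mdh-1, pyc-1 and mdh-2, against 49.4% of IDR summits and 16.4% of all candidate summits. Of the 51 candidates at the 8 genes, weak ones included, 13 had a core within 50 bp. At pck-1 there were 3 cores, with their CG at 10, 15 and 29 bp from the summit toward higher coordinates, and at mdh-2 there were 3 at -1, 15 and 42 bp. At least 3 cores within 50 bp were found at 14 IDR summits (2.64%) and at 84 candidates (0.28%). At mdh-1 the single core lay at -14 bp and at pyc-1 at 13 bp. Each of the 3 upstream IDR peaks thus had a core within 15 bp of its summit, and so did the mdh-2 peak of rank 4348. The second IDR peak of mdh-1 had none within 50 bp, its nearest being at -62 bp.

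**Figure D4:**
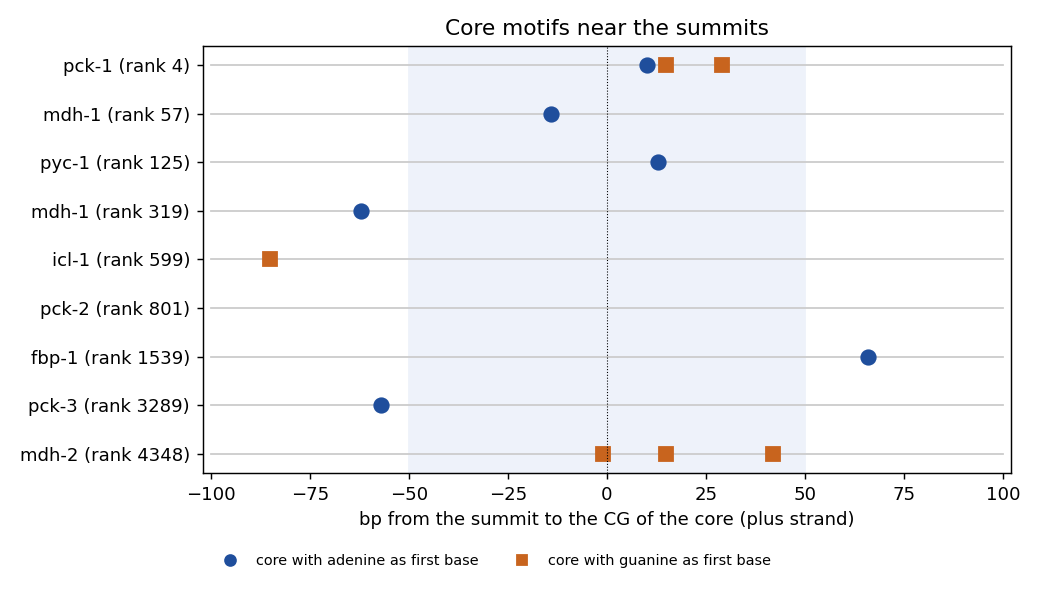
Position of each RCGTG core (blue circles where the first base is adenine, orange squares where it is guanine) relative to the summit, in bp along the plus strand, for the 4 IDR peaks and the strongest peak of each of the other genes, strongest at the top. The shaded band is 50 bp to either side, in which pck-1 and mdh-2 have 3 cores each, mdh-1 (rank 57) and pyc-1 have 1 each and the remaining peaks have none.

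The extended form TACGTG, which holds ACGTG, stood within 50 bp of the strongest summit at pck-1, mdh-1 and pyc-1 and at none of the other 5 genes. It was found at 13.2% of IDR summits and 2.19% of all candidates. The E-box CACGTG, which also holds ACGTG, was at none of the 8 strongest summits, against 7.92% of IDR summits and 2.18% of candidates. The xenobiotic response element TTGCGTG, which holds GCGTG, was also at none of the 8, against 2.64% of IDR summits and 0.787% of candidates. Likewise none had TGATAA, a site of intestinal GATA factors, against 5.66% of IDR summits and 9.69% of candidates. The M-box TCATGTG was at none as well, against 3.21% and 1.36%. A missing match says only that these letters were not in the window. The GC content of the 101 bp was 43.6% at mdh-1, 37.6% at pyc-1, 36.6% at icl-1, 60.4% at mdh-2 and 23.8% at pck-3, where the median was 50.5% over IDR peaks and 36.6% over candidates. It was 33.7% at the second IDR peak of mdh-1. At pck-1 it was 52.8%, over the whole 231 bp peak. Values for pck-2 and fbp-1 are not given.

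Genes of adjoining steps were read by the same rule. Of 11 genes for the reversible steps that glycolysis and gluconeogenesis share, 7 had an IDR summit in the window: gpd-2 (rank 3, at a summit nearer the start of mai-1), tpi-1 (12), enol-1 (70), gpi-1 (106), ipgm-1 (174), aldo-1 (323) and pgk-1 (439). Of 7 genes for steps used by glycolysis alone, 1 did, the phosphofructokinase gene pfk-1.1 (463). Of 19 TCA cycle genes matched by symbol, 5 did, namely sdha-1 (42), sucl-1 (148), dld-1 (178), sdhd-1 (216) and aco-2 (365), with the summits of sdhd-1 and aco-2 nearer the starts of ilkp-1 and eef-1B.1. Of 10 genes for substrate entry and carriers, 1 did, the mitochondrial pyruvate carrier gene mpc-2 (246), at a summit nearer unc-108. Over the genes with a candidate, which leaves out idhg-2 and sdha-2, the median rank of the strongest peak was 323 for the shared steps, 1586 for glycolysis alone, 2563 for the TCA cycle and 1849 for entry and carriers. The lists are small and were set beside the 8 genes without a test, so no list is said to differ from another.

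**Figure D5:**
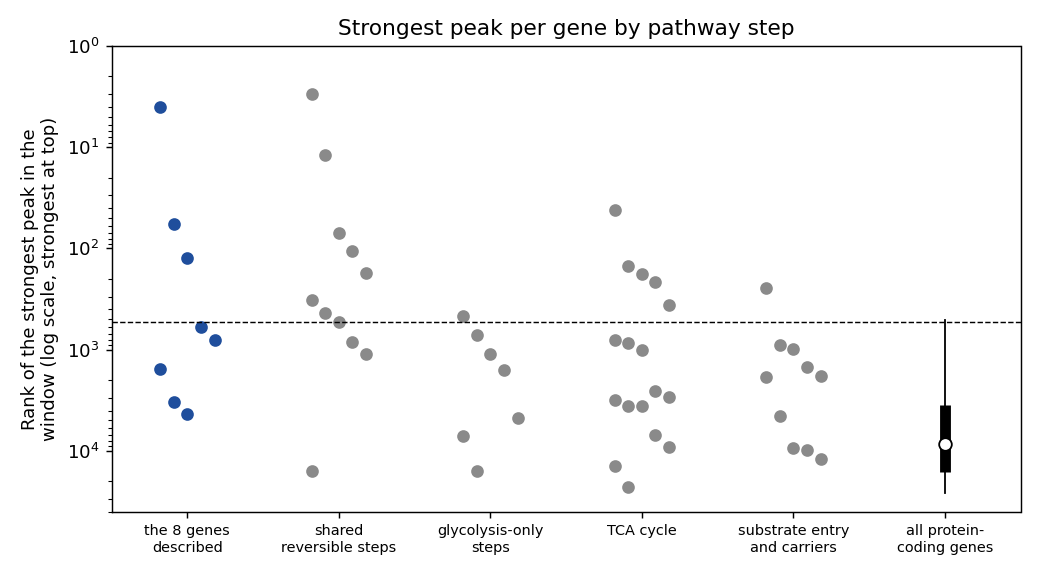
Rank of the strongest candidate in the window of each gene, on a log axis with the strongest at the top, for the 8 genes described (blue) and 4 lists of adjoining steps (grey), with all protein-coding genes that have a candidate at the right (circle, median; thick bar, middle 50 percent; thin line, percentiles 5 to 95). The dashed line is rank 530, above which lie 3 of the 8 genes and 7 of the 11 genes for shared steps.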

How the data were processed

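The peak lists of the ce11 assembly were used as deposited. Notes deposited by the authors say that alignments of 1 replicate with a control gave that replicate's list, that alignments of both gave the pooled list, and that the IDR list derives from the pooled one. The sources used here do not give the aligner, the caller or the thresholds, and the control was not analysed here. The signal per peak is the value the authors deposited, and its scaling is not given. The −log10 q-values deposited by the authors were tied at their maximum for 928 candidates and served only as an alternative ranking. The ce10 lists were not used. Per the labels' protocols, library fragments spanned 150 to 350 bp. Depth is unknown.

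Summits were placed on WBcel235 (ce11 under another name) using genes from Ensembl release 115 and sequence from the RefSeq genome, in Python 3.11.15 with pandas 2.3.3, and coordinates count from 1. A candidate was matched to the replicate peak that overlapped it by at least 1 bp with the nearest summit. Motifs were sought on both strands within 50 bp of the summit, and overlapping cores with the same CG count as 1. Of the listed symbols, sdhc-1, got-1.1 and got-1.3 had no match among protein-coding genes. Other windows, list lengths, motif windows, matching rules, a ranking by q-value and either replicate alone were tried. The rules recovered planted peaks and cores on simulated data. The genes, lists and motifs were chosen with earlier results of these data known. The text names the 8 genes, their IDR and strongest peaks, genes with a nearer start, neighbours in rank and at the 3 kb limit, and list genes with an IDR summit. Any other candidate, among them those closest to a start, those with an E-box and the mdh-2 peak of rank 14252, was named after its values were seen. No test was made, since there was 1 group and the peaks were chosen by the values described. The labels call the samples biological replicates, and whether they came from separate cultures is not given.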

Additional observations from a re-analysis of the deposited data

How the results depend on the processing

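The number of genes with an IDR summit, 3 of 8, depended on the window and on the list. It was 1 with 1 kb in place of 3 kb, and 1 in a window from 1000 bp upstream to 500 bp downstream of a start. Each time this was mdh-1, and the pck-1 summit at -1003 bp lay just outside. With 1 kb the strongest pck-1 peak had rank 2862 in place of 4. Shares of all protein-coding genes are not given for 1 kb or 5 kb. The number was 4 with 5 kb, icl-1 being the addition through its peak of rank 522. It was 5 when the 1060 strongest candidates were taken. It was 3 for the stronger 265 IDR peaks and when ranked by q-value, and 3 to 4 from either replicate alone. The 51 candidates became 14 in the narrow window. The count of strongest summits with a core, 4, was 7 within 100 bp and 8 in the whole peak. Within 100 bp a core was found at 64.0% of IDR summits and 28.7% of all candidates. No such share is given for the whole peak. Of the counts under an alternative, 6 moved by more than 1.5 times and 25, some of them listed above, stayed within 1.5 times the value given. Among the 25 was the strongest overlapping replicate peak as the match, an alternative chosen after seeing the data. Of 45 ranks of single genes under these settings, 19 moved by more. No paired analysis was possible because there was 1 group. Unknown depth and lists of fixed length limit what a missing peak shows.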
